A study of Mus musculus with 20 samples.

Results

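Hepatocyte transcription factors are the DNA-binding proteins that switch on the liver's own genes, and 9 of them are described here across liver tissue and liver tumours of mice: Hnf4a, Nr5a2, Foxa1, Foxa2, Foxa3, Cebpa, Cebpb, Onecut1 and Prox1. They were taken by name, as every probe set of the deposited table whose only gene symbol was one of these 9. This gave 19 of the 45037 probe sets on the arrays and 9 of the 18193 genes tested, and all 9 had at least 1 probe set. Foxa1, Foxa2, Foxa3 and Cebpa had 1 probe set each, Cebpb and Onecut1 had 2, Prox1 had 3, and Hnf4a and Nr5a2 had 4. A gene is represented below by its probe set with the highest mean over all arrays.

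The RNA came from snap-frozen liver tissue of male C57BL/6 mice that all carried a conditional APCko genotype, that is, an Apc gene that can be deleted on demand. The product of Apc belongs to the complex through which beta-catenin, the effector of Wnt signalling, is degraded. The 20 arrays formed 4 groups of 5. Non-tumour liver of mice with no further treatment is called untreated liver, and non-tumour liver of mice fed phenobarbital is called phenobarbital liver. Carcinomas came from mice without phenobarbital and are labelled with untreated liver as their control, while adenomas came from mice on phenobarbital and are labelled with phenobarbital liver as theirs. Per the sample protocols every mouse received 0.75 mg tamoxifen once, by intraperitoneal injection at the age of 6 weeks, and went 1 week later onto standard chow or chow with 0.05% phenobarbital, a drug that activates the nuclear receptor CAR, for 9 months. The series' design text names the carcinogen DEN in place of tamoxifen, the labels name the untreated group H2O although the protocols name chow, and neither point was settled. What drives the recombinase is not stated in the sources used here, whether Apc was deleted in the non-tumour liver was not tested, no mice without the conditional allele were analysed here, and diet and tumour kind cannot be told apart between the tumours. Neither separate mice for the 5 samples of a group nor shared mice for tumour and liver are stated in the labels, and p-values here measure only how these samples spread, part of which may be technical.

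Hepatocyte identity is held by a network rather than by a single regulator. FOXA proteins are pioneer factors that open closed chromatin at liver enhancers, the nuclear receptors HNF4A and LRH-1 (the product of Nr5a2) and the basic leucine zipper protein C/EBP-alpha then drive genes for apolipoproteins, clotting factors, bile acids, urea and glucose, and many of these factors bind each other's promoters. Onecut1 (also called HNF6) and the homeobox factor Prox1 act in the growing liver bud and stay on in adult hepatocytes, and Prox1 is also the defining factor of lymphatic endothelium.

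Promoters of 5 of the factors are shown because these genes stand for the different courses described below: Hnf4a and Nr5a2 were low in carcinomas, Foxa2 and Prox1 high in carcinomas, and Onecut1 low in adenomas. Each is the 250 bases before a RefSeq transcript start on GRCm38.p6, read 5′ to 3′ along the gene, in lower case with motif matches of either strand in capitals. The Hnf4a window lies at chr2:163546905-163547154 on the plus strand, before the start that is 40.3 kb downstream of the gene's first start. The Nr5a2 window lies at chr1:136960449-136960698 on the minus strand, the Foxa2 window at chr2:148046970-148047219 on the minus strand, the Prox1 window at chr1:190170828-190171077 on the minus strand and the Onecut1 window at chr9:74861671-74861920 on the plus strand.
Hnf4a: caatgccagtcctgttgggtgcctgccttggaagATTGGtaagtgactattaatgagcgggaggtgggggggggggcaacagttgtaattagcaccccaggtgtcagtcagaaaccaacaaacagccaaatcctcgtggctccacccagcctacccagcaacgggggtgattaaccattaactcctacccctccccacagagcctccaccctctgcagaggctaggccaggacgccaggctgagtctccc
Nr5a2: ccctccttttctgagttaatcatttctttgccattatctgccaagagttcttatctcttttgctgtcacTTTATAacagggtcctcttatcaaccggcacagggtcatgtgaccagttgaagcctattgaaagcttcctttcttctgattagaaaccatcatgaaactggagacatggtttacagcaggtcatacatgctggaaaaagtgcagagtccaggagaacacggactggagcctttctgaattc
Foxa2: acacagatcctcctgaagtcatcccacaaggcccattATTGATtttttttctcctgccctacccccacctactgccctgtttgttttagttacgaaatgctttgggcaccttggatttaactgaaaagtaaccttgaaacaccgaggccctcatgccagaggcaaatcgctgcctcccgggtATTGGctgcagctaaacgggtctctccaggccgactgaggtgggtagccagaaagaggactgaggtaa
Prox1: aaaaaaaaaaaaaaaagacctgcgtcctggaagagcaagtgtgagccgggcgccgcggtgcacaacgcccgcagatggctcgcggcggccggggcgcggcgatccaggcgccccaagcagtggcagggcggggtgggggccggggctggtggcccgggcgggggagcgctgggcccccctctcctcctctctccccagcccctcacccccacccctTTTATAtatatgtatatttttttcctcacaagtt
Onecut1: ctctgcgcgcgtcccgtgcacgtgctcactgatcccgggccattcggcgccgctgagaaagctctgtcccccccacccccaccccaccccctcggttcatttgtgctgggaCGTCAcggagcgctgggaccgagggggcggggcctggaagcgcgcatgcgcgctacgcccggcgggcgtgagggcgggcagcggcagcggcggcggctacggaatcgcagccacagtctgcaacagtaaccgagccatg
In these sequences ATTGG is a CCAAT box read from the other strand, TTTATA is a TATA box (TATAAA) on the other strand, ATTGAT is a onecut core and CGTCA is the core of a cyclic AMP response element (TGACG) on the other strand, and no match shown overlaps another. CCAAT was in 6 of the 14 windows of the 9 genes and in 33.8% of all 32851 promoter windows of the same length, and TATAAA was in 5 of the 14 and in 12.4% of all. Of the other letters searched on both strands, TGACG was in 2 of the 14 and in 17.8% of all windows. ATTGAT was in 2 of the 14 and in 6.72% of all, and TTGCNNAA for C/EBP in 1 and in 9.56%. For forkhead factors, TGTTTAC was in 1 of the 14 and in 3.17% of all, and TGTTTGC in 1 and in 4.30%. CAAAGNNCA for HNF4 was in 5.49% of all windows and ATCAAAG for TCF and LEF factors in 3.21%. All these motifs were chosen after the sequences had been seen. CAAAGNNCA and ATCAAAG were in none of the 14 windows. The windows of the 9 genes had a median GC content of 59.8% and 15.5 CpG sites, against 52.4% and 6 over all windows. The Nr5a2 window shown held 2 CpG sites and the Onecut1 window 31.

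Before the factors, the labelled tissue was checked against 10 hepatocyte marker genes such as Alb and Apob. Their mean log2 value was 13.98 to 14.13 on the untreated arrays, 13.83 to 13.92 on the phenobarbital arrays and 13.04 to 13.72 on the adenoma arrays. Carcinomas were lower and uneven: arrays 1, 3 and 4 stood at 10.87, 10.53 and 11.30, array 5 at 8.81 and array 2 at 6.25. All 10 markers fell in carcinomas, beside 37.6% of all genes, while 1 of 10 (Cps1) fell in adenomas, beside 11.2%. In these markers carcinoma arrays 2 and 5 therefore stood apart from their group. Over all genes they did not: their median correlation with the other carcinomas was 0.963 and 0.974. Arrays 1, 3 and 4 had 0.969, 0.959 and 0.964. The differences of the factors that passed in carcinomas are given with and without arrays 2 and 5. Counts of gene lists in carcinomas are given with these arrays, and some shifted when they were left out. In whole tissue, fewer cells of a type and less RNA per cell cannot be told apart.

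In carcinomas, 6 of the 9 factors fell and 2 rose. Hnf4a, Nr5a2, Foxa1, Foxa3, Cebpa and Cebpb were lower than in untreated liver by 2.36 to 5.08 on the log2 scale, Foxa2 and Prox1 were higher, and Onecut1 did not pass the test. Every statement that a gene rose, fell or changed rests on limma with a Benjamini-Hochberg adjusted p of at most 0.05, and each difference is given in log2 units with the standard error (SE) of the fit. Of all genes tested 68.9% passed in this comparison, 31.4% higher and 37.6% lower, so that a change alone sets the factors little apart from other genes. The same 8 factors were the ones whose 5 carcinoma arrays lay wholly outside the 5 untreated arrays, which held for 53.2% of all genes. Over the 9 factors the median difference was -3.74, beside -0.12 over all genes.

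**Figure D1:**
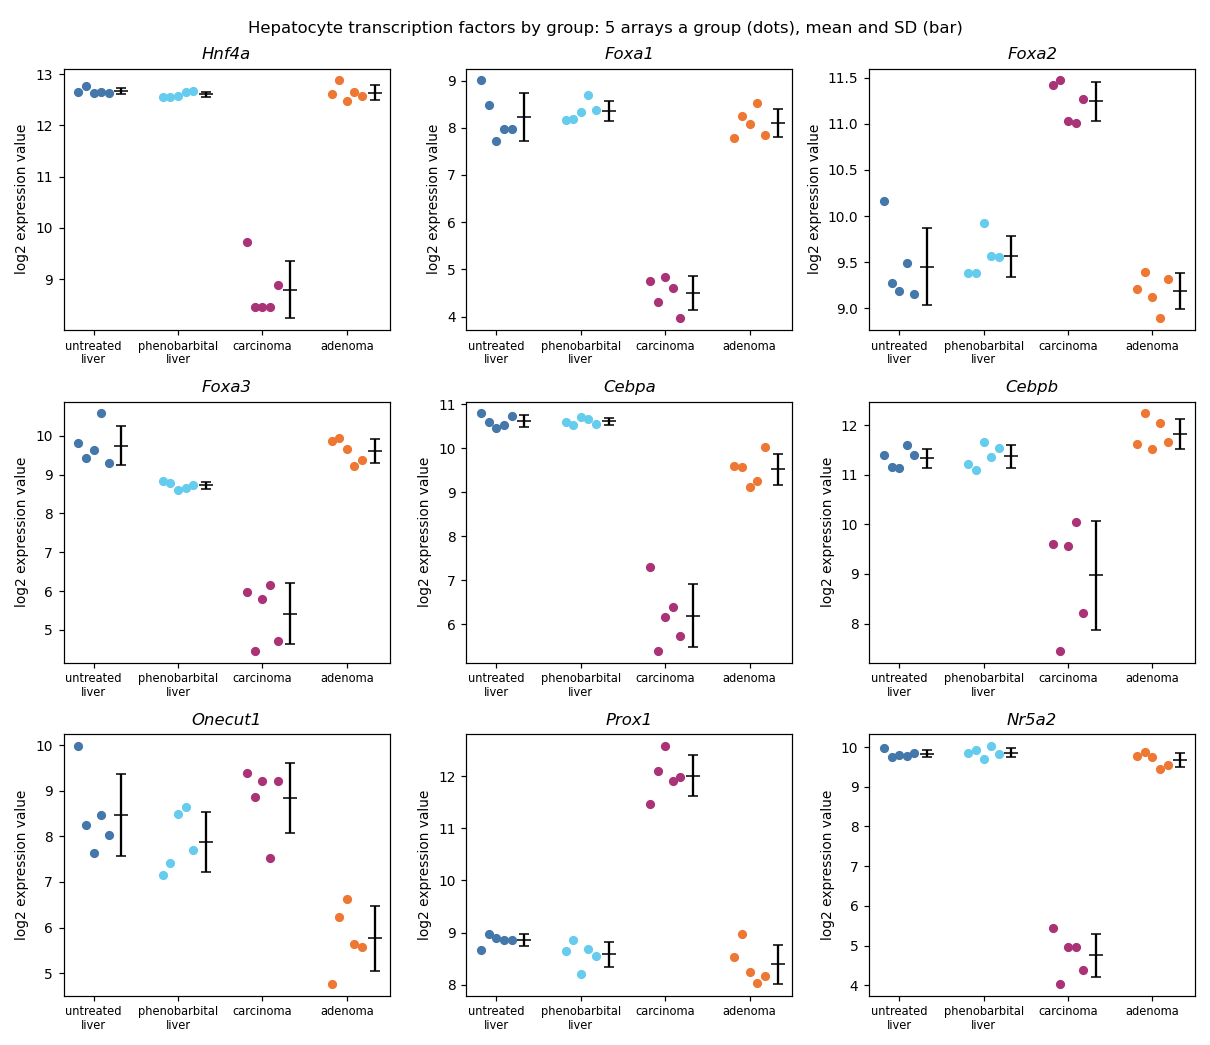
Log2 expression values (vertical axes) of the 9 factors in the 5 arrays of each group (dots, in array order), with the group mean and SD as a bar. Hnf4a, Foxa1, Foxa3, Cebpa, Cebpb and Nr5a2 are low in carcinomas, Foxa2 and Prox1 are high there, and Onecut1 is low in adenomas, between 4.77 and 6.63. Each panel has its own vertical scale, which does not start at 0.

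Hnf4a, the nuclear receptor that binds the promoters of a large part of the liver's genes, had the smallest spread of the 9 factors in both liver groups. Its log2 values were 12.65, 12.77, 12.64, 12.65 and 12.63 in untreated liver, and 12.55, 12.56, 12.58, 12.65 and 12.66 in phenobarbital liver. Adenomas gave 12.61, 12.88, 12.47, 12.66 and 12.56, and carcinomas 9.73, 8.46, 8.46, 8.46 and 8.88. The adenomas thus overlapped both liver groups, while every carcinoma was below every other array. The carcinoma difference was -3.87 (SE 0.17, adjusted p = 2.45e-13), a fold of 0.0686. In adenomas the difference from phenobarbital liver was 0.03 (SE 0.17, 95% interval -0.33 to 0.40, adjusted p = 0.913). This SE and interval use the spread shared by all groups, carcinomas included. The SD of Hnf4a between the untreated arrays was 0.06, and 3.73% of all genes had a smaller one. Its other probe sets fell by 4.17, 4.72 and 1.05 in carcinomas, the last from a probe set with a mean of 6.20 in untreated liver and 5.15 in carcinomas. None of the 4 Hnf4a probe sets passed the test in adenomas, and which of the gene's starts each one reads was not determined here.

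Nr5a2 encodes LRH-1, a nuclear receptor of bile acid and cholesterol metabolism, and had the largest measured difference of the 6 factors that fell. Untreated liver gave 9.99, 9.76, 9.79, 9.77 and 9.86, and phenobarbital liver 9.86, 9.92, 9.69, 10.02 and 9.82. Adenomas gave 9.77, 9.88, 9.74, 9.44 and 9.54, and carcinomas 5.44, 4.04, 4.95, 4.96 and 4.39. Liver and adenoma arrays overlapped, and every carcinoma lay below all of them. The carcinoma difference was -5.08 (SE 0.18, adjusted p = 8.69e-15), or a fold of 0.0296, and the carcinoma mean (4.76) lay below the median of every array (5.52 to 5.63). The adenoma difference was -0.19 (SE 0.18, adjusted p = 0.501). All 4 Nr5a2 probe sets fell in carcinomas, with differences of -5.08, -4.38, -3.19 and -0.73. The smallest came from a probe set that stood at 4.72 in untreated liver and 3.98 in carcinomas, near the low end of the values on the arrays. When a gene was taken as the mean of its probe sets, the Nr5a2 difference shrank to -3.35.

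The FOXA factors, which share a forkhead DNA-binding domain, parted in carcinomas. Foxa1 and Foxa3 fell, while Foxa2, which is also active in bile ducts and the endoderm of the embryo, rose. Foxa2 stood at 10.16, 9.27, 9.18, 9.49 and 9.15 in untreated liver and at 11.42, 11.47, 11.03, 11.01 and 11.27 in carcinomas, with no overlap. Its difference was 1.79 (SE 0.17, adjusted p = 1.3e-08), a 3.46-fold higher level. Foxa1 ran from 7.72 to 9.00 in untreated liver and from 3.97 to 4.84 in carcinomas, a difference of -3.74 (SE 0.22, adjusted p = 9.65e-12). Foxa3 stood at 9.80, 9.42, 9.63, 10.57 and 9.29 in untreated liver and at 5.97, 4.46, 5.78, 6.16 and 4.70 in carcinomas. Its difference was -4.33 (SE 0.29, adjusted p = 7.71e-11), and its lowest carcinomas were arrays 2 and 5. Foxa2 was not lowest on these arrays: array 2 was its highest carcinoma (11.47) and array 5 stood in the middle (11.27).

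The C/EBP factors both fell in carcinomas. Cebpa, which drives metabolic genes of the mature hepatocyte and restrains cell division, stood at 10.79, 10.60, 10.47, 10.52 and 10.74 in untreated liver and at 7.30, 5.40, 6.17, 6.39 and 5.75 in carcinomas. The groups did not overlap, and the difference was -4.42 (SE 0.24, adjusted p = 3.82e-12). Cebpb, a factor of the acute phase response and of regeneration, stood at 11.41, 11.15, 11.13, 11.59 and 11.39 in untreated liver and at 9.61, 7.45, 9.56, 10.05 and 8.21 in carcinomas. It had the widest spread of the 9 factors there (SD 1.10), with arrays 2 and 5 the lowest. Its difference was -2.36 (SE 0.34, adjusted p = 5.57e-06) over all arrays and -1.59 (SE 0.18, adjusted p = 4.05e-07) without carcinoma arrays 2 and 5. The second Cebpb probe set fell by 2.69.

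Prox1 had the largest rise. It stood at 8.67, 8.98, 8.89, 8.86 and 8.86 in untreated liver and at 11.47, 12.10, 12.58, 11.92 and 11.98 in carcinomas, without overlap. The difference was 3.16 (SE 0.18, adjusted p = 9.12e-12), an 8.92-fold higher level, and its other probe sets rose by 2.96 and 1.95. Lymphatic endothelium, another cell type that Prox1 marks, was represented by 5 measured markers: Pdpn rose by 1.09, while Lyve1 (-2.79), Flt4 (-1.47), Reln (-1.96) and Mmrn1 (-0.53) fell. Their summed level on a linear scale was 1664 to 2800 in untreated liver and 347 to 1439 in carcinomas. Pdpn and Mmrn1 lay below the median of every untreated array. Whether these markers track lymphatic endothelium in this tissue was not tested, so the sum cannot be read as its amount.

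Onecut1 was the exception in carcinomas. It stood at 9.97, 8.25, 7.63, 8.47 and 8.03 in untreated liver and at 9.39, 8.87, 9.21, 7.52 and 9.21 in carcinomas. The groups overlapped, and the difference was 0.37 (SE 0.44, 95% interval -0.56 to 1.29, adjusted p = 0.467). The gene varied widely in every group, with an SD of 0.66 to 0.89, and 99.5% of all genes had a smaller SD in untreated liver. Its paralogue Onecut2 stood at a mean of 9.38 in untreated liver and 4.19 in carcinomas and fell by 5.19 (SE 0.18, adjusted p = 4.17e-15). No difference between these paralogues was tested.

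**Figure D2:**
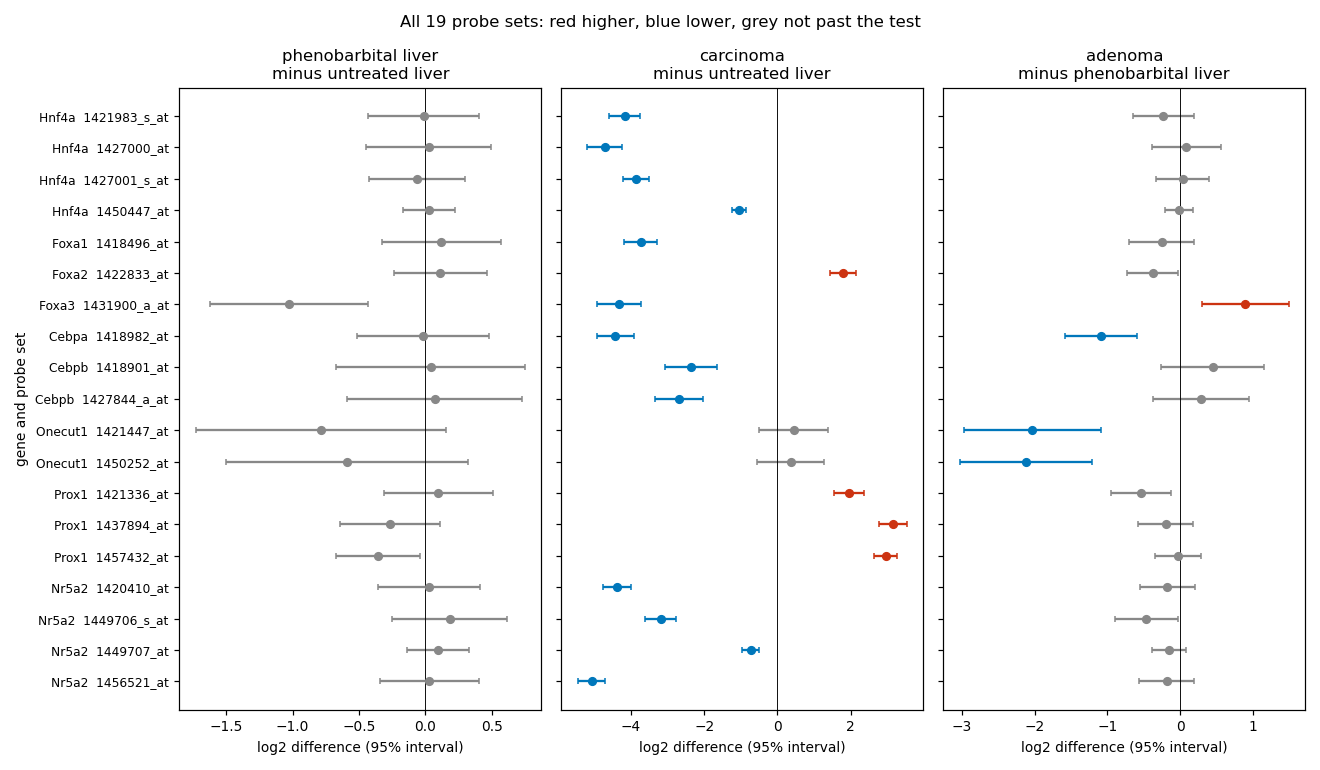
Log2 differences (horizontal axes, points) with 95% intervals (bars) for all 19 probe sets in 3 comparisons, red where higher and blue where lower past the test and grey where not. In carcinomas 13 probe sets are lower and 4 higher, in adenomas 3 are lower and 1 higher, and under phenobarbital none passes; the horizontal scales differ between panels.

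At the level of probe sets, 13 of 19 fell and 4 rose in carcinomas, beside 63.1% of all probe sets called, 34.9% lower and 28.3% higher, and the plot of all 19 probe sets shows that no gene had probe sets called in opposite directions. Among the 6 factors that fell, carcinoma array 2 was the lowest of its group for 4, and array 1 was the highest for 3. The mean of these 6 factors was 5.69 on carcinoma array 2 and 5.98 on array 5, against 6.63 to 7.13 on the other carcinomas and 10.10 to 10.61 on the other 15 arrays. Without arrays 2 and 5 the same 6 factors fell and the same 2 rose: the differences were then -3.78 for Hnf4a, -4.72 for Nr5a2, -3.50 for Foxa1, -3.77 for Foxa3, -4.01 for Cebpa, 1.70 for Foxa2 and 3.14 for Prox1, and the highest adjusted p among them was 7.66e-07. The order of the arrays by the fallen factors followed that of the hepatocyte markers at its low end, where arrays 2 and 5 were lowest on both; the part of cell composition in these results was not tested.

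**Figure D3:**
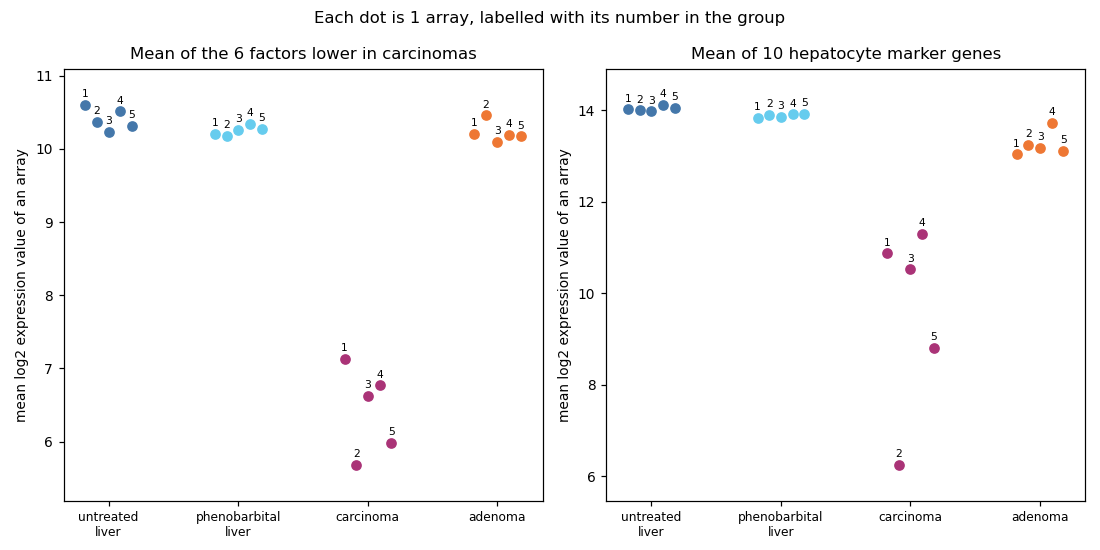
Mean log2 value per array (vertical axes) of the 6 factors lower in carcinomas (left) and of 10 hepatocyte marker genes (right), with each array labelled by its number in the group. Carcinoma arrays 2 and 5 are lowest in both panels, at 5.69 and 5.98 on the left and 6.25 and 8.81 on the right; the vertical axes do not start at 0.

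Markers of other cell types moved in the same carcinomas, where 31.4% of all genes rose and 37.6% fell. Of 9 stellate cell and myofibroblast markers 6 rose and none fell, led by Acta2 (7.20) and Col1a2 (4.31), and their summed linear level was 5055 to 9307 in untreated liver and 24473 to 56271 in carcinomas. Of 8 bile duct markers 3 rose and 1 fell, led by Krt7 (5.23) and Sox4 (5.21), with a summed level of 342 to 765 in untreated liver and 5745 to 10890 in carcinomas. Another Sox4 probe set was lower in carcinomas (-0.26, adjusted p = 0.0465). Krt19 and Sox9, which also mark bile ducts, did not pass (differences of 0.35 and 0.19), and Cftr lay below the median of every carcinoma array. Of 9 sinusoidal endothelial markers 7 fell and none rose. Of 9 macrophage markers 1 rose and 4 fell, and 4 rose when carcinoma arrays 2 and 5 were left out. Of 7 neutrophil markers 5 fell and none rose, and of 7 lymphocyte markers 2 rose and 4 fell. All 4 fat markers fell, as did 5 of 8 pancreas markers, of which none rose. On every carcinoma array 4 neutrophil, 3 fat and 6 pancreas markers lay below the array median. Foxa2 and Onecut1 are also expressed in bile ducts, and the part of these cell types in the levels of the factors was not tested.

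Most genes in the short lists of known targets used here fell in carcinomas, where 37.6% of all genes fell, although Foxa2 itself rose. The lists come from textbook knowledge and were chosen with earlier results of these data known. They share members such as Apob, Alb and Ttr, and also hold genes that mark hepatocytes. Their falls are therefore no independent test of the factors. Of 16 measured HNF4A targets 16 fell and none rose, with a median difference of -5.58 beside -0.12 over all genes. The largest falls were those of Otc, the urea cycle enzyme ornithine transcarbamylase (-7.31, SE 0.52), and Slc10a1, the bile acid importer NTCP (-6.87, SE 0.57). Of 11 LRH-1 targets 11 fell (median -4.28), led by the bile acid synthesis enzymes Cyp8b1 (-6.37) and Cyp7a1 (-6.30). Of 15 C/EBP targets 14 fell and none rose (median -5.18), led by the iron hormone gene Hamp (-8.17) and the urea cycle gene Cps1 (-7.04). Of 11 FOXA targets 9 fell and none rose (median -5.51), led by the glucose transporter gene Slc2a2 (-6.74) and the gluconeogenic gene Pck1 (-6.57). Igfbp1 (-1.39, adjusted p = 0.0912), Afp (0.41, adjusted p = 0.468) and Lcn2 (-0.24, adjusted p = 0.76) were the listed targets that did not pass.

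**Figure D4:**
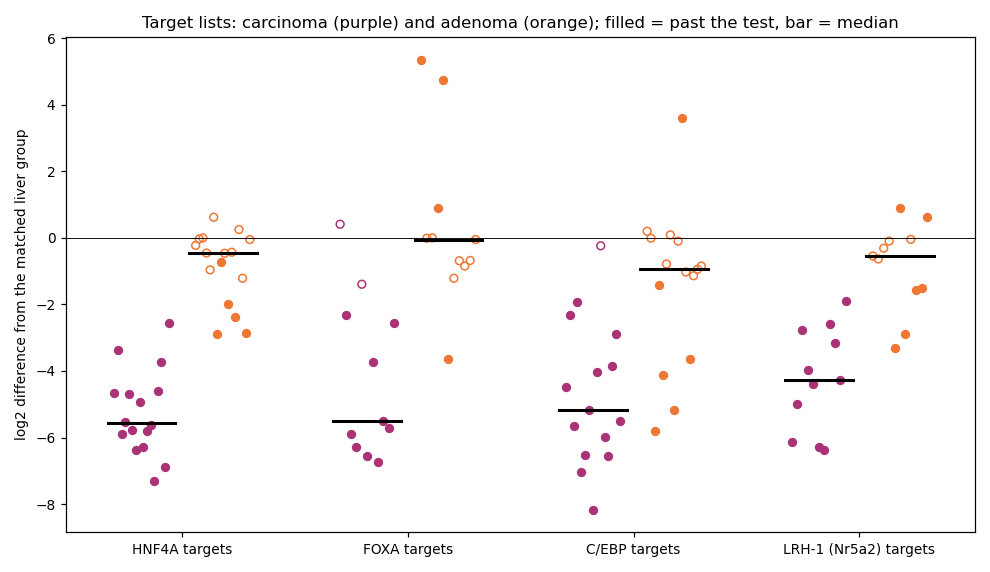
Log2 difference from the matched liver group (vertical axis) of the genes in 4 target lists, for carcinomas (purple) and adenomas (orange), filled where past the test, with a bar at the median of each list. Carcinoma medians lie between -5.58 and -4.28 and adenoma medians between -0.95 and -0.05; a gene in several lists is drawn in each.

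In carcinomas 37.6% of all genes fell and 31.4% rose, with a median of -0.12. Among 24 other liver factors measured, 17 fell and 3 rose there, with a median of -2.27. The largest falls after Onecut2 included Nr1h4, the bile acid receptor FXR (-4.98, SE 0.21), and the largest rises were Nr2f1 (4.60, SE 0.26), an orphan nuclear receptor, and Tbx3 (1.30, SE 0.32), a known target of beta-catenin in liver. A second Tbx3 probe set moved the other way (-0.29). Of 9 relatives of C/EBP with a leucine zipper, 3 fell and 1 rose, a smaller share than the 68.9% of all genes called. Hlf (-3.29) and Atf5 (-3.28) had the largest falls, and Cebpd, an acute phase factor, rose by 1.67 (SE 0.34) where Cebpa and Cebpb fell. Of 14 forkhead genes outside the FOXA group 6 rose and 5 fell, near the shares of all genes, with a median of 0.01. Foxc1 (2.67) and Foxn3 (1.57) led upward and Foxp2 (-2.85) and Foxo1 (-0.44) downward. Foxk1, counted as risen, had another probe set that was lower (-0.68).

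In adenomas 6 of the 9 factors did not pass the test against phenobarbital liver. Cebpa and Onecut1 fell and Foxa3 rose. Of all genes 24.6% passed, 13.4% higher and 11.2% lower. The same 3 factors were those with no overlap between the arrays of the groups, which held for 19.3% of all genes. The median of the 9 differences was -0.20, beside -0.03 over all genes, and 3 probe sets fell and 1 rose of 19, beside 18.8% of all probe sets called, 9.18% lower and 9.62% higher.

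Onecut1 had the largest change in adenomas. Phenobarbital liver gave 7.16, 7.42, 8.48, 8.65 and 7.69, and adenomas 4.77, 6.23, 6.63, 5.64 and 5.57, so that every adenoma was below every phenobarbital array, and also below every untreated and carcinoma array. The difference was -2.12 (SE 0.44, adjusted p = 0.00153), a fold of 0.231. The second probe set fell by 2.03 (SE 0.45), with adenomas at a mean of 4.40. Onecut2 was at a mean of 8.90 in phenobarbital liver and 8.85 in adenomas, a difference of -0.05 (SE 0.18, adjusted p = 0.874).

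Cebpa fell in adenomas as well. Its values were 10.60, 10.53, 10.70, 10.65 and 10.55 in phenobarbital liver and 9.60, 9.57, 9.13, 9.26 and 10.02 in adenomas, without overlap. The difference was -1.09 (SE 0.24, adjusted p = 0.00248) or a fold of 0.470, and it was smaller than the carcinoma difference by 3.33 (SE 0.34, adjusted p = 1.19e-07, interaction term). Cebpb gave a difference in the other direction that did not pass, 0.44 (SE 0.34, adjusted p = 0.388), with phenobarbital liver from 11.09 to 11.66 and adenomas from 11.53 to 12.24. Without carcinoma arrays 2 and 5, which share the estimate of the spread, this Cebpb difference passed (adjusted p = 0.0421).

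Foxa3 was higher in adenomas than in phenobarbital liver, while its adenoma arrays overlapped untreated liver. It stood at 8.83, 8.78, 8.60, 8.65 and 8.73 in phenobarbital liver and at 9.87, 9.95, 9.65, 9.22 and 9.38 in adenomas. The difference was 0.90 (SE 0.29, adjusted p = 0.0284), or 1.86-fold, and it failed the test when phenobarbital array 3, 4 or 5 or adenoma array 1, 2 or 3 was left out (adjusted p up to 0.0673). The untreated arrays, from 9.29 to 10.57, overlapped the adenomas, which ran from 9.22 to 9.95. Foxa1, with 8.17 to 8.70 in phenobarbital liver and 7.78 to 8.53 in adenomas, differed by -0.25 (SE 0.22, adjusted p = 0.444). Foxa2 differed by -0.38 (SE 0.17, adjusted p = 0.115), with phenobarbital liver from 9.39 to 9.92 and adenomas from 8.89 to 9.39. Prox1 ran from 8.20 to 8.85 and from 8.03 to 8.97 in these groups, a difference of -0.20 (SE 0.18, adjusted p = 0.482).

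In adenomas, where 11.2% of all genes fell and 13.4% rose, fewer of the listed targets passed the test, and they moved in both directions. Of 16 HNF4A targets 5 fell and none rose (median -0.46), led by Cyp8b1 (-2.87, SE 0.57) and Slc10a1 (-2.85, SE 0.57). Of 15 C/EBP targets 5 fell and 1 rose (median -0.95): Arg1 (-5.81, SE 0.83), an enzyme of the urea cycle, and Hamp (-5.18, SE 0.77) had the largest falls, and Lcn2, which encodes an acute phase protein, rose by 3.60 (SE 0.67). Of 11 FOXA targets 3 rose and 1 fell (median -0.05): Afp, the fetal counterpart of albumin, rose by 5.36 (SE 0.50), Igfbp1 rose by 4.74 (SE 0.72), and Pck1 fell by 3.63 (SE 0.86). Of 11 LRH-1 targets 4 fell and 2 rose (median -0.54), with Cyp17a1 (-3.30) and Cyp8b1 lowest and Cyp7a1 (0.91) and Scarb1 (0.64) raised. Without carcinoma arrays 2 and 5 in the shared fit, 8 HNF4A targets and 3 FOXA targets fell.

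Leucine zipper relatives of C/EBP moved in both directions in adenomas, where 13.4% of all genes rose and 11.2% fell. Of 9 measured, 4 rose, among them the stress response factors Ddit3 (1.38, SE 0.21) and Atf5 (1.14, SE 0.19), and 2 fell, the clock output factors Dbp (-2.52, SE 0.67) and Hlf (-0.62, SE 0.20). Atf5 thus rose in adenomas and fell in carcinomas. Of the 24 other liver factors 5 fell and 1 rose, in total near the 24.6% of all genes called. Srebf1, the regulator of fat synthesis (-1.85, SE 0.14), and Nr0b2, the corepressor SHP (-1.50, SE 0.22), were lowest and Tbx3 (1.35, SE 0.32) was raised. Of 14 other forkhead genes 3 fell and none rose, in total also near that share, with Foxq1 (-0.92) and Foxp2 (-0.82) lowest. All 7 measured proliferation genes rose in both tumours, with Mki67 higher by 3.52 in carcinomas and 2.93 in adenomas, although another probe set of Top2a was lower in carcinomas (-0.43). In adenomas 4 of 9 stellate cell and myofibroblast markers rose and 2 fell, and their summed level was 3748 to 14000 against 5947 to 7406 in phenobarbital liver.

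**Figure D5:**
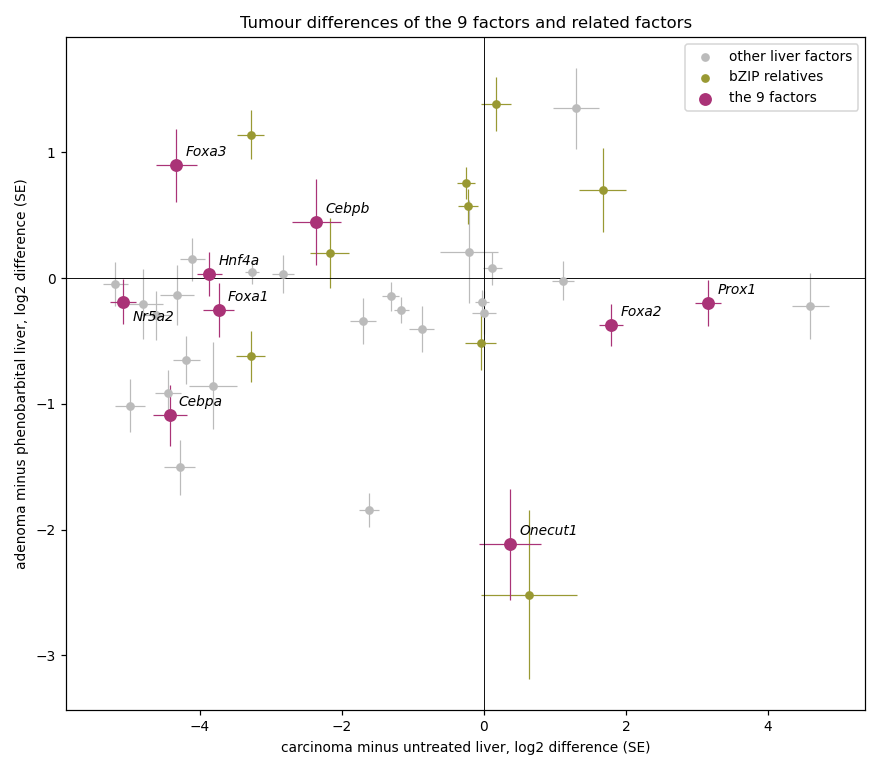
Log2 difference of carcinomas from untreated liver (horizontal axis) against that of adenomas from phenobarbital liver (vertical axis) for the 9 factors (purple), other liver factors (grey) and leucine zipper relatives of C/EBP (green), with SE bars. Hnf4a, Foxa1 and Nr5a2 lie far left near 0 on the vertical axis, Prox1 and Foxa2 lie right, and Onecut1 lies low, at -2.12.

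The changes in both kinds of tumour differed for all 9 factors. The difference of the adenoma change and the carcinoma change, tested as an interaction, passed for 9 of 9, beside 46.6% of all genes, and was above 0 for 6 and below 0 for 3, beside 23.3% of all genes in each direction. It was largest for Foxa3 (5.22, SE 0.41, adjusted p = 2.82e-09) and Nr5a2 (4.89, SE 0.26, adjusted p = 1.16e-11), and below 0 for Prox1 (-3.35, SE 0.26), Onecut1 (-2.48, SE 0.63, adjusted p = 0.00279) and Foxa2 (-2.17, SE 0.24). Compared directly, adenomas had 30.2-fold the Nr5a2 level of carcinomas, 18.4-fold the Foxa3 level, 14.3-fold the Hnf4a level, 12.2-fold the Foxa1 level, 9.96-fold the Cebpa level and 7.16-fold the Cebpb level. The carcinoma means of Nr5a2 (4.76), Foxa1 (4.50) and Foxa3 (5.42) lay below the median of every array, where RMA values compress folds, so that their folds are approximate and their order is not firm. The Onecut1, Foxa2 and Prox1 levels of adenomas were 0.119, 0.241 and 0.0812 of those of carcinomas. All 9 direct differences passed with no overlap of the arrays, beside 62.2% of all genes called and 41.7% without overlap. For probe sets the direct difference passed for 19 of 19, beside 55.6% of all, and the interaction for 19 of 19, beside 39.9%.

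Phenobarbital alone changed none of the 9 factors past the test. Called genes were rare in this comparison, 39 of 18193 or 0.214%, and of the probe sets 0 of 19 passed, beside 0.147%. At an unadjusted p under 0.05 there was 1 factor, Foxa3, beside 5.90% of all genes, and there were 2 of 19 probe sets, beside 6.27% of all. Foxa3 was lower in phenobarbital liver by 1.03 (SE 0.29, 95% interval -1.63 to -0.42, unadjusted p = 0.00209, adjusted p = 0.314), and it was the only factor whose arrays did not overlap between the liver groups, as 4.62% of all genes did not. It passed the test with array weights (adjusted p = 0.0213), in a fit of the liver groups alone (0.0246) and without carcinoma arrays 2 and 5 (0.0348). It did not pass in the other 27 of 30 alternatives, such as without untreated arrays 3 and 4 (-0.79, SE 0.31, adjusted p = 0.854). The other factors differed by between -0.59 (Onecut1, SE 0.44) and 0.12 (Foxa1, SE 0.22). The 95% intervals were -0.43 to 0.30 for Hnf4a, -0.35 to 0.40 for Nr5a2 and -0.52 to 0.49 for Cebpa. They use the spread shared by all groups, and these 3 factors spread more widely in carcinomas than in the livers. For Hnf4a the SD was 0.06 in untreated liver, 0.05 in phenobarbital liver and 0.55 in carcinomas. The intervals therefore do not show how closely the liver arrays alone bound these differences. The comparisons of carcinomas and of phenobarbital liver share the untreated arrays, and those of adenomas and of phenobarbital liver share the phenobarbital arrays.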

How the data were processed

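Total RNA of 20 samples was measured on Affymetrix arrays after 3'IVT Express labelling, per the labels' protocols. The table that the authors deposited holds log2 values of each probe set, made with RMA per the submitters' processing notes, which give no version. RMA corrects background, makes the arrays' distributions alike and summarises probes on a log2 scale, so that a shift of all genes is removed and folds of dim genes shrink. The 45037 probe sets on 20 arrays had no missing value and ran from 2.67 to 15.1, with array medians of 5.52 to 5.63. The number of arrays, not a read depth, limits the precision.

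Probe sets were named through the platform annotation and checked against RefSeq of GRCm38.p6: 34945 had a single symbol, of which 34741 matched, 932 had several and 9160 none. Each of 18193 genes was represented by its probe set with the highest mean, after dropping sets ending in _x_at where another existed. One limma 3.58.1 fit in R 4.3.3 (lmFit, eBayes, both directions) covered all 4 groups, with 16 residual degrees of freedom and a prior of 3.22, and p-values were adjusted by Benjamini-Hochberg across the genes of each comparison, at a threshold of 0.05. A separate fit covered all probe sets. The method was tested on simulated data in which a small part of the genes was shifted in the carcinoma group and all groups had the same spread. That test does not cover the many changed genes and the wider spread of the tumours here. Named genes were all 9 factors, up to 2 called rises and 2 called falls of each other list in a comparison, and the 3 genes most like each factor. The members and gene lists were chosen with earlier results of these data known. Ttr, Alb, Apob and others stand in several lists. Promoter windows are those of RefSeq. Results were recomputed with a filter on dim probe sets, centring, quantile normalization, means over probe sets, trended robust eBayes, array weights, a replicate block, the compared groups alone, each array left out, and untreated arrays 3 and 4 or carcinoma arrays 2 and 5 left out, the last chosen after seeing the data.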

Additional observations from a re-analysis of the deposited data

Results flagged for a closer look

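A sample far from the rest of its group was found in 2 of the 36 sets of 5 arrays examined (9 factors in 4 groups), and chance gives about 1 in 20. Hnf4a on untreated array 2 was at 12.77, above the next array at 12.65, in a group whose lowest array was at 12.63. Onecut1 on carcinoma array 4 was at 7.52, below the next at 8.87, while the highest carcinoma was at 9.39.

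The adenoma change (against phenobarbital liver) differed from the carcinoma change (against untreated liver) for all 9 factors by the limma interaction term, as it did for 46.6% of all genes. The adenoma change minus the carcinoma change was 5.22 for Foxa3, 4.89 for Nr5a2, 3.90 for Hnf4a (adjusted p = 1.73e-10), 3.48 for Foxa1 (adjusted p = 1.47e-08), 3.33 for Cebpa and 2.80 for Cebpb (adjusted p = 8.3e-05) on the log2 scale. It was -3.35 for Prox1 (adjusted p = 2.29e-09), -2.48 for Onecut1 and -2.17 for Foxa2 (adjusted p = 3.08e-07). Diet and tumour kind cannot be told apart in these differences.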

How the results depend on the processing

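Of 1341 alternative values for the 9 factors in the 5 comparisons, 1317 kept their direction and side of the threshold, 13 that had not passed changed sign without passing (11 under phenobarbital and 2 in adenomas, all at most 0.14 in size), 6 lost the call, 5 gained it and none of the called values reversed. The count of factors called under phenobarbital was 0, and 1 (Foxa3) with array weights, with the compared groups alone and without carcinoma arrays 2 and 5, while all genes called numbered 39, and 205 with array weights, 265 with the compared groups alone and 38 without those carcinomas. The count of probe sets called there was 0, and 1 without carcinoma arrays 2 and 5. With 1 array left out at a time, 2 to 4 factors and 3 to 6 probe sets were called in adenomas, and the other counts did not move. Foxa3 in adenomas lost its call in 6 of these fits, and Foxa2 gained one without untreated array 1 (adjusted p = 0.038). Same-numbered arrays correlated at -0.11 to 0.13 in their deviations from the group means, above 0.1 in 1 of 30 pairs. Of these 30 pairs, 7 matched their own number best, each among the 5 arrays of the other group. Between untreated liver and carcinomas these were numbers 1, 2 and 4, at correlations of 0.04, 0.04 and 0.05. Between phenobarbital liver and adenomas there was none. The 30 pairs pool all combinations of groups, also those across diets, and cannot decide whether same-numbered liver and tumour samples share a mouse. With the replicate number as a block the counts of factors called stayed at 0 for phenobarbital, 8 for carcinomas, 3 for adenomas and 9 for the other comparisons, and 5 in place of 4 probe sets passed in adenomas. Of 5364 alternative counts for the gene lists, 5200 were within 1.5 times the main count and 164 were not. RMA values of probe sets near the low end of the arrays, as for the dimmest Nr5a2 set, bound small differences poorly.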

Other observations

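The genes whose course over the 20 arrays was most like that of a factor were found by the smallest root mean square difference of log2 values after each gene was centred on its own mean. For Nr5a2 the nearest was Hpn, which encodes the hepatocyte serine protease hepsin, at 0.149. For Cebpa it was Ndrg2, a gene of the NDRG family, at 0.180, and for Hnf4a it was Golt1a at 0.216, followed by the complement gene C2. Foxa2, which rose in carcinomas, was nearest to Lta4h, the leukotriene A4 hydrolase gene, at 0.207, and Prox1 to Plcb4, a phospholipase C gene, at 0.282. Foxa1 was nearest to Gcdh (0.318), Cebpb to Sigirr (0.356) and Foxa3 to Cldn3 (0.448), and the third nearest to Foxa3 was Hhex, another liver transcription factor (0.479). Onecut1 had no gene as near: its first was Hes6, a relative of the Notch target genes, at 0.727, followed by Fgfr2 and Id3. Within the 9 factors the closest pair was Hnf4a and Foxa1, at 0.399. These distances are over all 20 arrays of 4 groups, are smaller for genes with less spread, and say nothing of shared control.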
